A study of Mus musculus with 18 samples.

Results

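RNA of the nuclei and of the cytoplasm of fibers from the extensor digitorum longus (EDL), a fast-contracting muscle of the mouse hind limb, was compared across genes on single-colour Agilent arrays. The comparison used every array of this muscle, 3 of nuclei and 3 of cytoplasm, 6 of the 18 arrays of the series. The other arrays held the same fractions of soleus, a slower muscle, and of tibialis anterior (TA). They took part in the normalisation and in the estimate of spread behind every test. Their own values are given only where a difference in EDL is set against that in another muscle. All mice were CD1 females aged 3 months, with no treatment and no genetic change given in the labels. An EDL or soleus sample was a pool of 5 to 10 fibers from 2 mice, picked by hand after collagenase digestion, whereas 4 of the 6 TA samples came from 1 mouse each. EDL samples 1, 2 and 3 came from mice 3 and 4, mice 5 and 6, and mice 7 and 8, and both fractions were made from each pool. Fibers were broken in a detergent buffer, nuclei were spun down, and the liquid above them was taken as cytoplasm. A pool therefore averages over fibers and animals, and a pellet may hold whatever else sediments with nuclei.

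A muscle fiber is 1 very long cell with many nuclei, and its cytoplasm is packed with contractile filaments and mitochondria. Messenger RNA is transcribed and spliced in the nucleus and then exported, so that mature messenger RNA is found mostly in the cytoplasm, while some messengers are held back with introns still in place. Several long non-coding RNAs (lncRNAs) stay in the nucleus for their whole life: Xist coats the inactive X chromosome, Kcnq1ot1 silences its imprinted neighbours, Malat1 lies in nuclear speckles, which store splicing factors, and Neat1 is the scaffold of paraspeckles.

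The array carried 55681 probes besides controls, each a DNA strand of 60 bases. On the 6 EDL arrays the share of spots well above background, by the scanner software's flag, was 62.8% to 69.3% in cytoplasm and 64.5% to 66.9% in nuclei. All values below are log2 of the scanner's processed intensity after quantile normalisation of the 18 arrays, and a difference is nuclei minus cytoplasm. Arrays of 1 fraction correlated across probes with r of 0.962 to 0.966 in cytoplasm and 0.982 to 0.984 in nuclei, and arrays of different fractions with r of 0.871 to 0.893. Probes are not independent replicates, so these values only describe the arrays. The median SD between the 3 arrays was 0.28 in cytoplasm and 0.13 in nuclei. At 323 probes printed at several spots, the SD between the nuclear arrays had a median of 0.06, against 0.12 between spots of 1 array. The nuclear arrays therefore lay closer together than separate pools did in cytoplasm, where the same medians were 0.25 and 0.20 over 334 probes. The labels name separate pools of mice, but the counts of probes called and those of each gene list are also given with the nuclear arrays averaged and taken as 1 sample, which is then assumed to vary like the cytoplasmic ones. By the file headers all 3 EDL cytoplasm arrays lay on slide 1 and all 3 EDL nuclei arrays on slide 2, so slide and fraction cannot be told apart within EDL.

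The probes below lie in the nuclear lncRNAs and in the cytoplasmic regions on which the results turn, and they show what was hybridised. Coordinates are those of the array's design on mouse build mm9, with the strand the design lists, and sequences are printed as the scanner files give them. The first 6 lie in nuclear RNAs: Xist (chrX:100662174-100662233, minus strand), a further Xist probe that the array names XIST (chrX:100655899-100655958, minus), Kcnq1ot1 (chr7:150434020-150434079, minus), Neat1 (chr19:5842564-5842623, minus), a neighbouring probe that the array names NEAT1 (chr19:5842594-5842653, minus) and the region chr19:5798135-5800557_R at the Malat1 locus (chr19:5798256-5798315, minus). Capitals mark the run of 30 bases that the Neat1 and NEAT1 probes share.
Xist: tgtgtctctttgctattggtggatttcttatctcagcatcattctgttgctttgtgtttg
XIST: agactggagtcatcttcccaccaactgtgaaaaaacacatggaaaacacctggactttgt
Kcnq1ot1: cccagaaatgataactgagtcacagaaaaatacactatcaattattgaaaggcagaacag
Neat1: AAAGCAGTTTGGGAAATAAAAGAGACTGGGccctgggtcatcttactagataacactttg
NEAT1: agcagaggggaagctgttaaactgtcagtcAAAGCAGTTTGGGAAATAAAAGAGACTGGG
Malat1 locus region: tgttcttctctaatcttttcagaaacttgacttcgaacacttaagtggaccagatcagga

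The next 3 probes lie in lincRNA regions, stretches between genes that the array's design lists as transcribed, and were far brighter in cytoplasm. They are chr16:3337275-3355950_F (probe at chr16:3350651-3350710, plus strand), chr16:3111550-3130500_R (chr16:3115830-3115889, minus) and chr7:66926500-66952100_F (chr7:66930376-66930435, plus). Both chromosome 16 probes hold the 12 bases in capitals, although the regions are listed on opposite strands.
chr16:3337275-3355950_F: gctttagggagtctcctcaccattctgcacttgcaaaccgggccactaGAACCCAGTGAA
chr16:3111550-3130500_R: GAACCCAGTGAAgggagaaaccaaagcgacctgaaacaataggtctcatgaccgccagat
chr7:66926500-66952100_F: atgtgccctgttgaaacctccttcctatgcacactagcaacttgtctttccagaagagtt

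Nuclei and cytoplasm of EDL fibers differed at nearly every second probe, and the differences ran in both directions. Of 43669 probes tested, 20328 (46.6%) passed an adjusted p of 0.05 in limma's moderated test. Of these, 8742 (20% of those tested) were higher in nuclei and 11586 (26.5%) were higher in cytoplasm. The 3 nuclear values did not overlap with the 3 cytoplasmic values at 28949 probes (66.3%), and 284 called probes did overlap. Differences of at least 2-fold were called at 5572 probes in favour of nuclei and 8081 in favour of cytoplasm, and those of at least 8-fold at 171 and 533. With the nuclear arrays taken as 1 sample, 3419 of 45493 probes (7.52%) were called, 896 higher in nuclei and 2523 higher in cytoplasm, and 3194 of them had the same call with 3 nuclear arrays. The balance of the directions depended on how arrays were scaled to each other: the median difference of all probes was -0.05 after quantile normalisation, -0.29 after scaling each array to its 75th percentile and 0.35 with no scaling. Nuclei took 43% of the calls in the first case, 31.4% in the second and 69.5% in the third. Differences are therefore best read against the median of all genes.

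**Figure D1:**
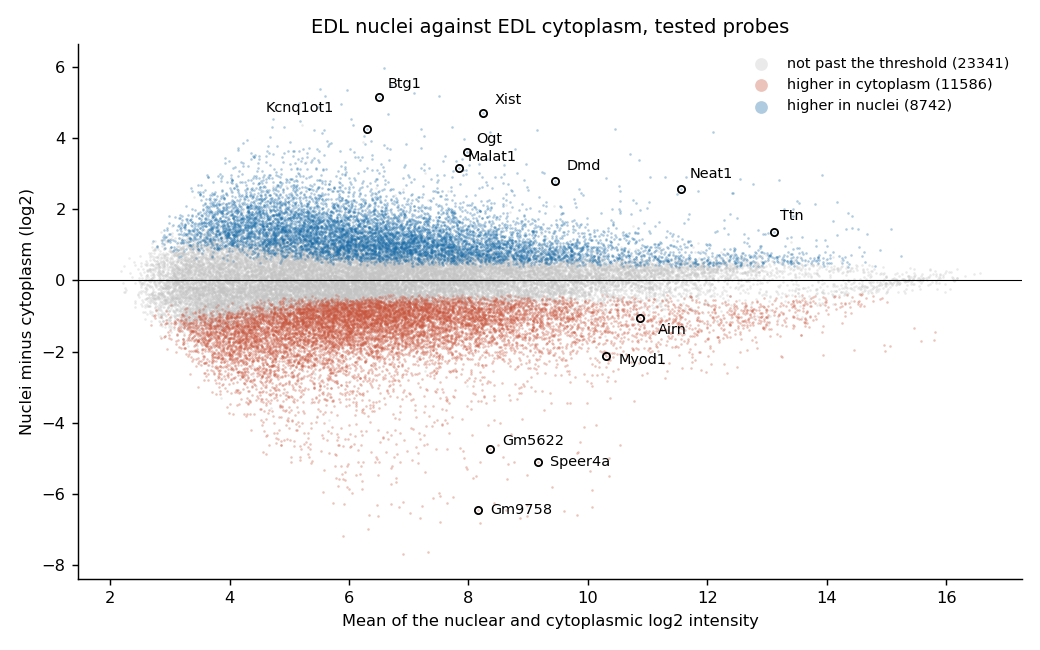
Difference between EDL nuclei and EDL cytoplasm (log2, vertical axis) against the mean of the nuclear and cytoplasmic levels (log2 intensity, horizontal axis) for every probe tested, with probes that passed the test in colour. Differences of at least 8-fold, a step of 3 on the log2 scale, were called at 171 probes higher in nuclei and at 533 higher in cytoplasm.

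When each gene was read by its brightest probe, 13675 of 29040 genes (47.1%) were called, 5417 (18.7%) higher in nuclei and 8258 (28.4%) higher in cytoplasm, with a median difference of -0.08. Among 16673 coding genes 7457 (44.7%) were called, and the split was 3949 (23.7%) to 3508 (21%). These shares are the background for every gene list below. With the nuclear arrays as 1 sample they were 1.63% and 5.58% of all genes, after scaling to the 75th percentile 15.5% and 36.5%, and with no scaling 35.5% and 16.2%.

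The X-chromosome silencer Xist was among the RNAs with the largest nuclear excess. Its probe read 5.94, 7.96 and 3.79 in cytoplasm and 10.60, 10.67 and 10.51 in nuclei. All 3 nuclear values exceeded the cytoplasmic ones, which were widely spread and well above background on 2 of 3 arrays. The difference was 4.70 with a standard error (SE) of 0.82 (adjusted p = 0.000318), and it was no longer called with the nuclear arrays as 1 sample. The probe printed above as XIST read 4.80, 3.46 and 3.62 in cytoplasm and 9.39, 9.35 and 9.57 in nuclei. Its difference was 5.48 with an SE of 0.72 (adjusted p = 3.18e-05), although the cytoplasmic level was well above background on only 1 array. Of 3 further probes of this region, 1 differed by 5.26, and the others, well above background on no cytoplasmic array, were at least 42.9-fold and 18.5-fold higher in nuclei. Kcnq1ot1, the antisense RNA of the imprinted Kcnq1 domain, read 4.12, 3.92 and 4.49 in cytoplasm against 8.39, 8.45 and 8.47 in nuclei. The groups were far apart, with a difference of 4.26 (SE 0.33, adjusted p = 3.22e-07) and of 3.82 at its other probe. Both probes were well above background on only 1 cytoplasmic array, so these sizes are not exact. The first difference ran from 2.14 to 4.62 over the settings tried.

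Malat1, the speckle RNA, read 5.68, 6.14 and 6.95 in cytoplasm and 9.46, 9.34 and 9.42 in nuclei. The difference was 3.15 (SE 0.53, adjusted p = 0.000256), without overlap, and it lost its call with the nuclear arrays as 1 sample. Neat1 read 9.99, 10.14 and 10.68 in cytoplasm and 12.83, 12.80 and 12.87 in nuclei. Its difference of 2.57 (SE 0.24, adjusted p = 1.68e-06) corresponds to 5.92-fold. Both genes are covered by a run of probes on chromosome 19, many of which the array names only by region. All 14 tested probes between positions 5795713 and 5802326 around Malat1 were called higher in nuclei, with differences of 2.15 to 4.24 at 11 probes listed on the minus strand and of 2.85 to 4.16 at 3 listed on the plus strand. Around Neat1, between positions 5834543 and 5845557, all 9 tested probes on the minus strand were higher in nuclei (1.61 to 4.21). Of 13 on the plus strand 8 were, with differences from -0.50 to 2.44 over the 13, and 0 were called higher in cytoplasm. Which of the listed strands a probe detects was not tested. The region chr19:5798135-5800557_R, printed above, read 8.11, 8.39 and 8.49 in cytoplasm and 12.55, 12.61 and 12.56 in nuclei, a difference of 4.24 (SE 0.23). The region chr19:5834117-5835940_R at the Neat1 locus read 7.15, 8.51 and 5.47 against 11.26, 11.26 and 11.25, a difference of 4.21 (SE 0.56).

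**Figure D2:**
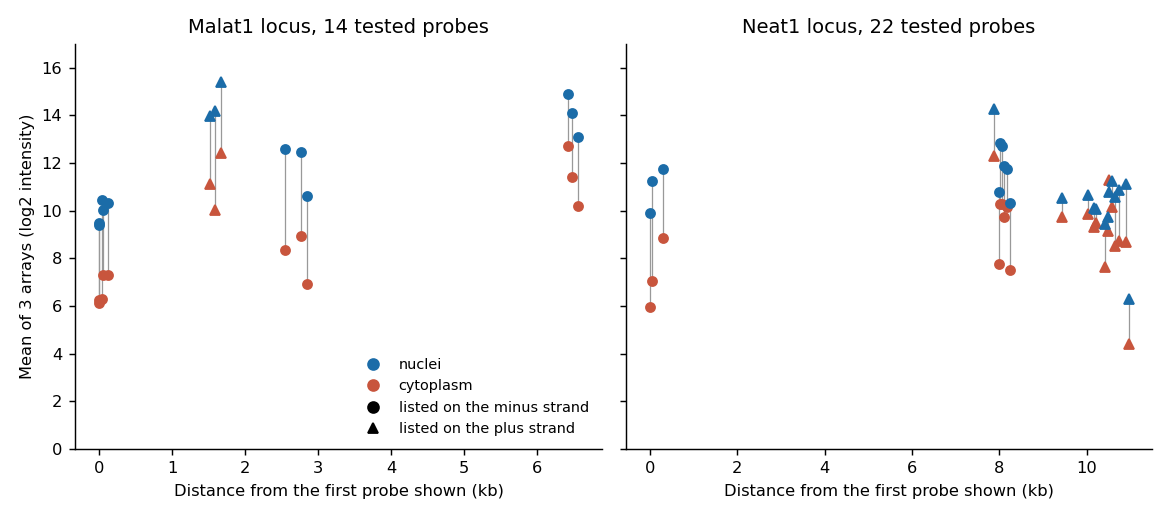
Mean level of 3 EDL nuclear arrays and of 3 EDL cytoplasmic arrays (log2 intensity, vertical axis) at each tested probe of the Malat1 and Neat1 loci, by distance from the first probe (kb, horizontal axis). All 14 Malat1 probes and 17 of 22 Neat1 probes were called higher in nuclei, and 0 higher in cytoplasm.

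The list of lncRNAs known from work on nuclear RNA or on muscle had 26 tested genes. Of these, 9 (34.6%) were higher in nuclei and 4 (15.4%) were higher in cytoplasm, against 18.7% and 28.4% for the whole array. This list had no fixed direction by its median. The median difference of -0.01 lay close to that of all genes and was -0.11 after scaling to the 75th percentile and 0.53 without scaling. With the nuclear arrays as 1 sample 4 were higher in nuclei and 0 in cytoplasm. Besides the 4 RNAs above, the maternally expressed Meg3 read 6.06, 5.29 and 5.55 in cytoplasm and 7.96, 8.01 and 7.83 in nuclei. This probe differed by 2.30 (SE 0.29) and was called, whereas a second Meg3 probe differed by -0.14 and was not. A further Meg3 probe was not tested. It was well above background on 3 nuclear and 0 cytoplasmic arrays (mean 5.14 in nuclei and 2.94 in cytoplasm). Within 30 kb of the uncalled Meg3 probe, a lincRNA region listed on the same strand ran the other way. Its 3 probes differed by -1.41, -0.60 and -0.30, the first and the second called higher in cytoplasm. Nctc1, a muscle RNA from the Igf2 and H19 domain, read 10.63, 10.79 and 11.02 in cytoplasm and 12.53, 12.63 and 12.44 in nuclei (difference 1.72, SE 0.24). Tug1 differed by 1.35 at a probe well above background on only 1 cytoplasmic array. Its other probe, well above background on no cytoplasmic array, was at least 1.85-fold higher in nuclei. The RNA 2310065F04Rik differed by 1.08 and Ftx, a neighbour of Xist, by 0.73. Tug1, 2310065F04Rik and Ftx were all called higher in nuclei. These 4 RNAs, Nctc1 among them, kept their direction in every setting tried, and Tug1, Ftx and 2310065F04Rik lost their calls with the nuclear arrays as 1 sample. That of Ftx was lost after scaling to the 75th percentile too, and that of 2310065F04Rik without EDL cytoplasm 2.

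The 4 listed lncRNAs called higher in cytoplasm were 15.4% of those tested, against 28.4% of all genes and 36.3% of probes of named lncRNAs. Pvt1, a lncRNA next to the Myc gene, read 7.48, 7.73 and 7.95 in cytoplasm and 6.40, 6.32 and 5.89 in nuclei. The 3 nuclear values were the lower ones (difference -1.52, SE 0.25, adjusted p = 0.000235), whereas its other probe was not called and was well above background on no array. Airn, the antisense RNA of the imprinted Igf2r gene, read 11.19, 11.57 and 11.45 in cytoplasm and 10.32, 10.43 and 10.28 in nuclei (difference -1.06, SE 0.28). Its other 3 probes ran the opposite way, with differences of 0.37 to 2.72, of which 2 were called higher in nuclei. Igf2os differed by -1.08. Tsix, the antisense partner of Xist, was not well above background on any nuclear array (mean 5.26 in cytoplasm and 3.99 in nuclei) and was at least 2.25-fold higher in cytoplasm. Pvt1, Airn, Igf2os and Tsix all lost their calls with the nuclear arrays as 1 sample, Airn and Igf2os did so without scaling too, and Tsix did with another background correction.

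For 13 listed lncRNAs the brightest probe was not called. Their differences were 1.09 for Gt(ROSA)26Sor, 0.66 for Mir22hg, 0.19 for H19, 0.05 for Norad, -0.08 for Peg13, -0.10 for Dancr and -0.15 for Dleu2. They were -0.16 for Firre, -0.21 for Mhrt, -0.22 for Oip5os1, -0.32 for Mirg, -0.51 for Snhg11 and -0.99 for Gnasas1, and the last was called with the mouse pool as a block (adjusted p = 0.0373). Firre, a nuclear RNA that brings distant chromosomal loci together, differed by 1.54 at a second probe and was at least 1.68-fold higher in nuclei at its last, well above background on no cytoplasmic array, and both of these were called. H19, the imprinted RNA that is abundant in developing muscle, read 12.74 to 13.98 in cytoplasm and 13.55 to 13.76 in nuclei. Its 6 other probes differed by -0.80 to 0.15, and the one at -0.66 was called higher in cytoplasm. Of the other Norad probes, the one at 0.59 was called higher in nuclei, and those at 0.34 and -0.54 were not called.

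Of all annotated lncRNAs that were well above background on at least 1 array of each fraction, the 6 with the largest nuclear excess were Xist, Kcnq1ot1, Atcayos, Dnm3os, Malat1 and Mir1a-1hg. Dnm3os, a precursor of microRNAs on the strand opposite Dnm3, read 5.08, 5.44 and 5.54 in cytoplasm and 9.10, 9.20 and 8.91 in nuclei (difference 3.71, SE 0.25), and its second probe, well above background on no cytoplasmic array, was at least 12.2-fold higher in nuclei. Mir1a-1hg, the host of the muscle microRNA miR-1a, read 5.62, 5.79 and 7.22 against 9.31, 9.29 and 9.20 (difference 3.06). Atcayos read 2.89 and 4.64 on the 2 cytoplasmic arrays with a value, of which 1 was well above background, and 7.64, 7.62 and 7.50 in nuclei (difference 3.82). The lincRNA region chr4:126710640-126721240_F read 4.72, 5.58 and 4.91 against 9.33, 9.35 and 9.31 (difference 4.26). Only 4 of the 7 other probes of that region had the same call, and their differences ran from -1.89 to 3.09.

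**Figure D3:**
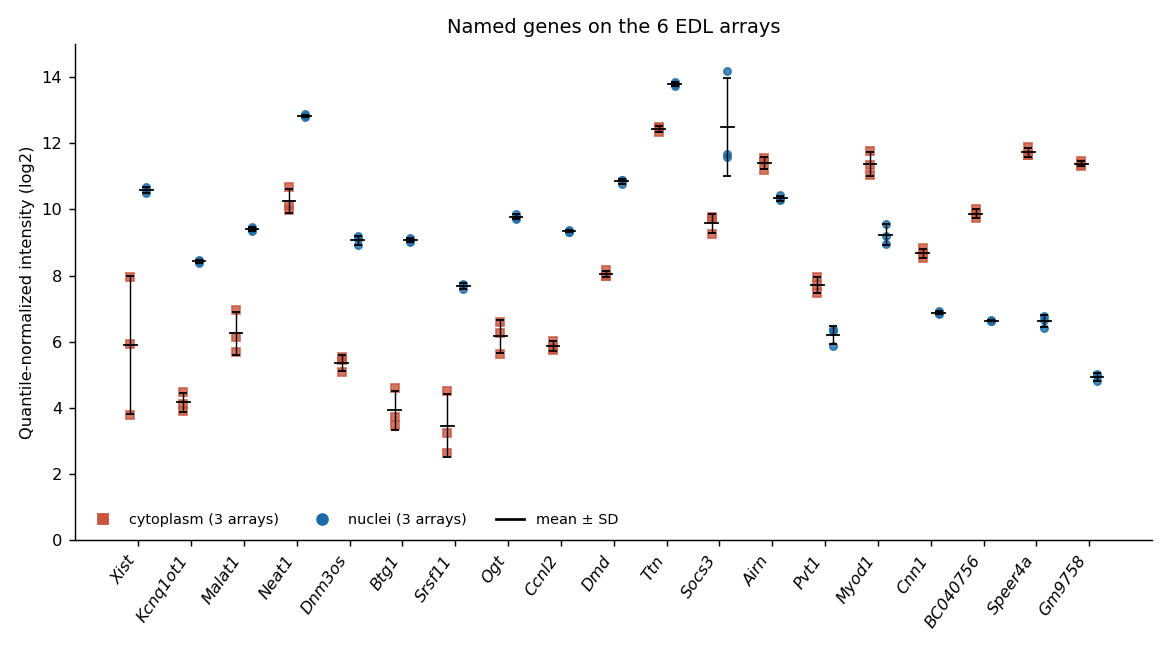
Levels of 19 named genes on each EDL array (log2 intensity, vertical axis), with nuclei and cytoplasm in separate colours and the mean and SD of 3 arrays per fraction. Xist, Kcnq1ot1, Malat1 and Neat1 lie higher in all 3 nuclear arrays, and Pvt1, Myod1, Cnn1, Speer4a and Gm9758 lie higher in all 3 cytoplasmic arrays.

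The 10 coding genes with the largest nuclear excess, among those well above background on at least 1 array of each fraction, each taken at its probe with the largest difference, were Btg1, Srsf11, Tnc, Spidr, Thbs2, Acap2, Ogt, Ccnl2, Lgals4 and Pde4dip. For Btg1, Srsf11, Ccnl2, Lgals4 and Pde4dip this was not the brightest probe, and by the brightest probe Btg1 and Ccnl2 were not called. Btg1, an inhibitor of proliferation, read 3.72, 3.48 and 4.60 in cytoplasm, well above background on 1 array, and 9.07, 9.15 and 9.01 in nuclei. This difference of 5.14 (SE 0.54, adjusted p = 4.53e-06) was not shared by the other Btg1 probe, which differed by 1.02 and was not called. Srsf11, a splicing factor, read 2.64, 3.25 and 4.52 in cytoplasm, well above background on 1 array, and 7.76, 7.59 and 7.71 in nuclei. This difference was 4.21 (SE 0.58) and ran from 1.90 to 4.74 over the settings tried. Srsf11 differed by 0.93 at its brightest probe and was at least 1.58-fold higher in nuclei at the third, both called. Ogt, the enzyme that attaches N-acetylglucosamine to nuclear and cytoplasmic proteins, read 6.59, 5.63 and 6.28 in cytoplasm and 9.86, 9.71 and 9.78 in nuclei. It differed by 3.61 (SE 0.31, adjusted p = 8.28e-07), or 12.2-fold. Ccnl2, a cyclin of nuclear speckles, read 6.03, 5.76 and 5.81 against 9.34, 9.38 and 9.33 (difference 3.48), but 0.34 at its other probe, uncalled. Pde4dip, which anchors signalling enzymes, read 6.29, 6.58 and 6.94 against 9.98, 10.03 and 9.99 (difference 3.4), and its 3 other probes differed by 1.21 to 1.91, the brightest by 1.21. The matrix protein Tnc differed by 4.06, Spidr by 3.82, Thbs2 by 3.81, Acap2 by 3.70 and Lgals4 by 3.46 (2.24 at its brightest probe). The Lgals4 probe at 3.46 was well above background on only 1 cytoplasmic array. Of these 10 genes, only Thbs2 lost its call with the nuclear arrays as 1 sample.

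Genes whose messages are known to be held in nuclei with introns in place, most of them splicing regulators, were mostly higher in nuclei in EDL. Of 38 tested, 29 were higher in nuclei and 0 were higher in cytoplasm. The median difference was 1.14, against -0.08 for all genes and 0.22 for coding probes. The median was 1.11 after scaling to the 75th percentile and 1.75 without scaling, and 4 members were called with the nuclear arrays as 1 sample. After Ogt came the splicing kinase Clk1, which read 7.8, 8.21 and 8.58 in cytoplasm and 10.34, 10.32 and 10.26 in nuclei (difference 2.11, SE 0.36). Wsb1 differed by 2.07, Nktr by 2.04, Hnrnpdl by 1.98 and the kinase Clk4 by 1.21, all called. Clk2 at -0.54 and the splicing factor Srsf2 at 0.04 were not called. The list of paraspeckle proteins had 4 of 8 members higher in nuclei (median 0.83), among them Cpsf7 at 1.01, Hnrnpk at 0.85 and Sfpq at 0.80. None of the list was called with the nuclear arrays as 1 sample, and the call of Cpsf7 was lost without EDL cytoplasm 1 or 3, without EDL nuclei 1 or 2 and with the mouse pool as a block (adjusted p = 0.0501).

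Messages of very large muscle proteins lay higher in nuclei as well. Of 20 tested, 15 were higher in nuclei and 0 were higher in cytoplasm, with a median of 1.32, and of 1.22 and 1.86 under the other scalings. With the nuclear arrays as 1 sample 3 were called. Dmd, which encodes dystrophin, the link between the filaments and the membrane, read 7.99, 8.16 and 7.99 in cytoplasm and 10.77, 10.90 and 10.88 in nuclei. The groups did not overlap (difference 2.80, SE 0.32, adjusted p = 1.07e-05), and 3 other Dmd probes differed by 0.21, which was not called, 3.28 and 3.33. The probe at 3.33 was well above background on only 1 cytoplasmic array. The last Dmd probe was well above background on no cytoplasmic array and was at least 4.03-fold higher in nuclei. Utrn, the dystrophin relative of the synapse, differed by 2.43 and 2.32 at its 2 probes. Ryr1, the calcium release channel, read 10.94, 10.44 and 10.90 against 12.54, 12.66 and 12.63 (difference 1.85). Ttn, the spring of the sarcomere, read 12.47, 12.34 and 12.48 in cytoplasm and 13.73, 13.79 and 13.84 in nuclei (difference 1.35, SE 0.19), with its other 3 probes at 1.08 to 3.05. Obsl1 differed by 1.73 and Neb, the ruler of the thin filament, by 1.12, while Mybpc2 (1.07) and Xirp1 (-0.34) were not called. The calls of Ttn, though not of Dmd, Utrn or Ryr1, were lost with the nuclear arrays as 1 sample.

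Immediate early genes, which cells switch on within minutes of a stimulus and whose messages are short-lived, had 22 of 33 tested members higher in nuclei and 0 higher in cytoplasm. The median was 1.18, and 1.08 and 1.72 under the other scalings, and 5 were called with the nuclear arrays as 1 sample. Socs3, a feedback inhibitor of cytokine signals, read 9.70, 9.25 and 9.79 in cytoplasm and 14.19, 11.68 and 11.59 in nuclei. The array EDL nuclei 1 stood far above the other nuclear arrays, although all 3 lay above the cytoplasm (difference 2.91, SE 0.51, and 2.06 without that array). The orphan receptor Nr4a2 read 7.04, 6.70 and 6.90 against 9.51, 9.53 and 9.36 (difference 2.58), Ier3 differed by 2.57, Junb by 2.28 and Egr3 by 2.27. The transcription factors Myc (1.63), Fos (1.47) and Egr1 (1.10) were called too, and Jund, at -0.11, was not. Among genes of the circadian clock, 7 of 18 were higher in nuclei and 1 in cytoplasm (median 0.57), against 1 and 0 with the nuclear arrays as 1 sample. The period gene Per3 read 4.84, 4.87 and 5.45 in cytoplasm and 7.83, 7.87 and 7.95 in nuclei (difference 2.83, SE 0.28), Per1 differed by 2.39 and Bhlhe40 by 1.55. Clock (mean 3.23 in cytoplasm and 5.23 in nuclei) and Npas2 (3.68 and 5.35) were well above background on no cytoplasmic array and were at least 2.15-fold and 2.25-fold higher in nuclei. The repressor Nr1d1 was higher in cytoplasm by 0.89, a call lost without EDL cytoplasm 3, EDL nuclei 2 or EDL nuclei 3, and Dbp differed by 0.06 and was not called.

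**Figure D4:**
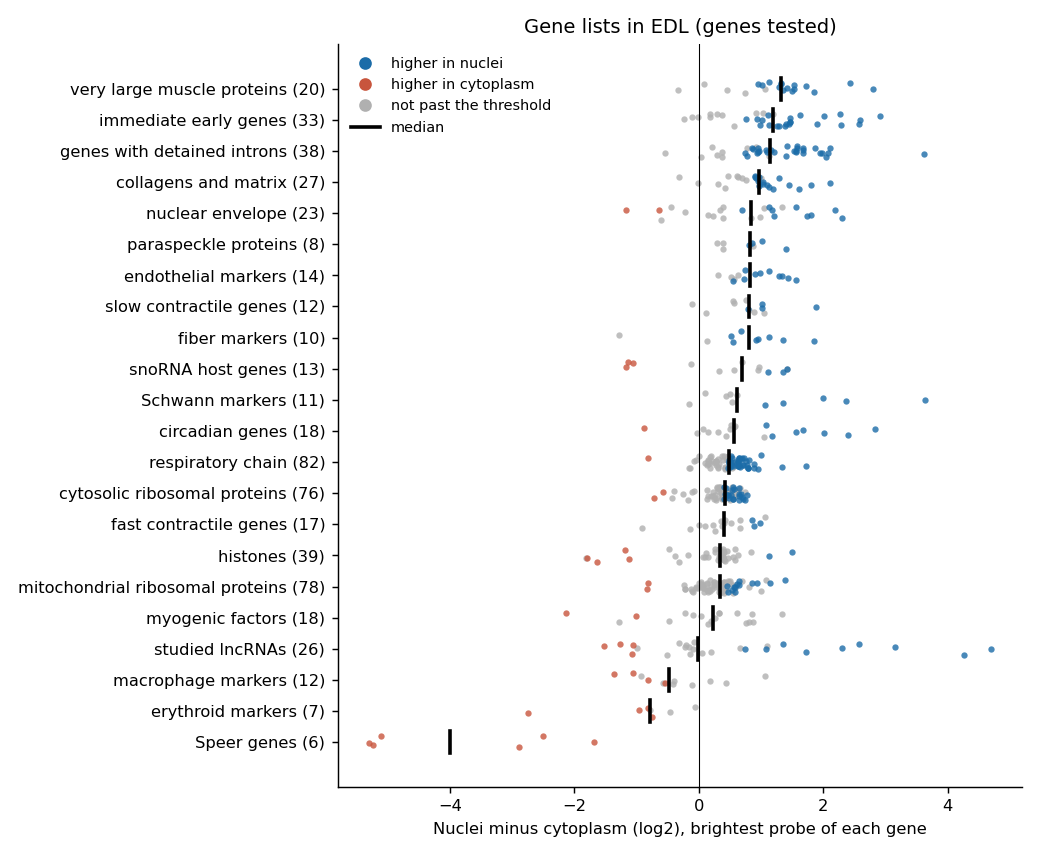
Differences between EDL nuclei and EDL cytoplasm (log2, horizontal axis) of the tested genes in 22 gene lists, 1 point a gene by its brightest probe, with the median of each list marked. The median was 1.14 for genes with detained introns, 1.32 for giant muscle proteins, 1.18 for immediate early genes and -4.00 for the Speer family.

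Messages of ribosomal and respiratory proteins, which are short and abundant, had smaller median differences. Of 76 cytosolic ribosomal proteins, 22 were higher in nuclei and 2 were higher in cytoplasm, with a median of 0.41. That count was 8 to 2 after scaling to the 75th percentile, 55 to 0 without scaling and 0 with the nuclear arrays as 1 sample. Rpl7 read 12.16, 12.13 and 12.31 in cytoplasm and 12.96, 13.02 and 12.93 in nuclei (difference 0.77), while Rps3 read 13.52, 13.70 and 13.96 against 13.23, 13.18 and 13.04 (difference -0.58). The other 2 probes of Rps3 were higher in nuclei by 1.00 and 1.02, so this gene has no single direction, and the call of its brightest probe was lost without EDL cytoplasm 3 or EDL nuclei 3. Nuclear-encoded subunits of the respiratory chain numbered 82, of which 40 were higher in nuclei and 1, Cox4i2 (-0.82), was higher in cytoplasm. Their median was 0.49, with 20 higher in nuclei after scaling to the 75th percentile, 72 without scaling and 0 with the nuclear arrays as 1 sample. Of 78 mitochondrial ribosomal proteins 13 (16.7%) were higher in nuclei, against 23.7% of coding genes, and 2 were higher in cytoplasm (median 0.34). Mrpl3 at 1.38 and Mrps14 at 1.14 were in the first group, and Mrps10 (-0.83) and Mrpl41 (-0.82) in the second. None of these was called with the nuclear arrays as 1 sample.

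RNAs encoded by the mitochondrial genome itself lie outside the nucleus, and they were chosen as a check of the fractions after their values were seen. All 13 tested probes were lower in nuclei, by 0.17 (COX1) to 0.91 (ND3), with a median of -0.32. The median was -0.88 after scaling to the 75th percentile and -0.24 without scaling, still with all 13 lower. Over all probes tested the 3 medians were -0.05, -0.29 and 0.35. ND3, ND6 (-0.67) and ND5 (-0.57) were among the 4 called higher in cytoplasm, which is 30.8%, against 26.5% of all probes tested. With the nuclear arrays as 1 sample 0 of the 13 were called. After quantile normalisation their levels in the nuclear fraction thus lay at most 0.91 below those in cytoplasm. After scaling to the 75th percentile the lowest difference was -1.22.

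Contractile and metabolic genes lay near these groups. Of 17 fast-fiber contractile genes, 3 (17.65%, against 23.7% of coding genes) were higher in nuclei and 0 in cytoplasm. These 3 were the myosin heavy chain Myh1 (0.98), the kinase Mylk2 (0.89) and the calcium store protein Casq1 (0.86). The median of this list, 0.40, turned to -0.08 after scaling to the 75th percentile, and the call of Myh1 was lost without any single array other than EDL cytoplasm 1. Among 12 slow-fiber genes 4 were higher in nuclei (median 0.80), led by the slow myosin Myh7, which read 10.39, 9.51 and 8.88 in cytoplasm and 11.41, 11.60 and 11.41 in nuclei (difference 1.88). Genes of glycolysis had 8 of 18 (44.4%) higher in nuclei (median 0.49), with Pgm2 at 1.46, Pfkm at 0.65 and Ldha at 0.52. Those of fatty acid oxidation had 6 of 24, or 25%, near the 23.7% of coding genes (median 0.43). Etfdh differed by 1.47 and Acadvl by 0.91. The short abundant muscle messages had 10 of 20 higher in nuclei (median 0.58), Ckm, the muscle creatine kinase, at 0.91 and Mb, myoglobin, at 0.54. Skeletal actin, Acta1, differed by 0.13 (adjusted p = 0.539) and was not called. With the mouse pool as a block, 5 genes of glycolysis, 3 of fatty acid oxidation and 6 of the short abundant messages were called. In none of these 5 lists was a gene called higher in cytoplasm, and in none was any gene called with the nuclear arrays as 1 sample.

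Genes for the nuclear envelope and for anchoring nuclei in the fiber had 9 of 23 members higher in nuclei and 2 in cytoplasm (median 0.84), against 2 and 0 with the nuclear arrays as 1 sample. Lmnb1, a lamin of the envelope, read 4.82, 4.54 and 4.84 in cytoplasm and 7.09, 7.03 and 6.97 in nuclei (difference 2.30, SE 0.67), and Syne2, which ties nuclei to actin, differed by 2.19. The anchoring protein Akap6 was well above background on no cytoplasmic array (mean 3.33, against 5.13 in nuclei) and was at least 1.98-fold higher in nuclei. Nrm was higher in cytoplasm by 0.63, but not without EDL cytoplasm 3 or EDL nuclei 3, where it was not called. Tmpo, which encodes lamina-associated proteins, differed by -1.17 at its brightest probe and by 0.52 to 1.33 at the others. Of the neuromuscular junction genes, 4 of 19 (21.05%) were higher in nuclei and 2 (10.5%) in cytoplasm, against 23.7% and 21% of coding genes. Their median of 0.05 became -0.12 after scaling to the 75th percentile. With the nuclear arrays as 1 sample, 1 was called higher in nuclei and 0 in cytoplasm. Agrn, the synapse organiser, read 7.86, 7.76 and 7.71 in cytoplasm and 9.06, 9.12 and 9.06 in nuclei (difference 1.30), while its receptor Musk read 7.94, 8.13 and 8.14 against 7.15, 7.16 and 7.20 (difference -0.90, SE 0.19).

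Of 18 myogenic transcription factors tested, 0 were higher in nuclei and 2 (11.1%) were higher in cytoplasm, against 23.7% and 21% of coding genes. The median was 0.23, and 12 of the 18 differences were above 0. Without scaling 7 were higher in nuclei, and with the mouse pool as a block 1 was. None was called with the nuclear arrays as 1 sample. Myod1, the master regulator of the muscle fate, read 11.04, 11.34 and 11.76 in cytoplasm and 9.20, 8.95 and 9.57 in nuclei. The nuclear values were all lower (difference -2.14, SE 0.44, adjusted p = 0.00109), a call that was lost with the nuclear arrays as 1 sample. Mef2b differed by -1.01 at its brightest probe but was called higher in nuclei, at least 1.39-fold, at its other probe, which was well above background on no cytoplasmic array. Myf6 differed by -1.29 (adjusted p = 0.083) and Myog by 0.81, neither of which was called.

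Chaperones of the endoplasmic reticulum had 6 of 27 (22.2%) higher in nuclei and 0 in cytoplasm (median 0.40), with Dnajc3 at 1.85 and Pdia3 at 1.10. Heat shock proteins had 6 of 20 (30%) and 1 (median 0.56), with Hsph1 at 1.35 and Dnaja4 at 0.93. Proteasome subunits had 7 of 31 (22.6%) higher in nuclei and 1 in cytoplasm (median 0.46), Psmd13 at 1.14 and Psmd1 at 1.01 against Psmb1 at -0.70. Psmd13 lost its call without EDL cytoplasm 2 or 3, and Psmb1 without EDL cytoplasm 2, EDL nuclei 2 or EDL nuclei 3 and with the mouse pool as a block (adjusted p = 0.0725). The nuclear shares of these chaperones of the endoplasmic reticulum and of the proteasome lay near the 23.7% of all coding genes, as did that of the next list. The atrophy genes under FoxO control had 5 of 22 (22.7%) higher in nuclei and 0 in cytoplasm (median 0.52). Foxo3 itself, the transcription factor that drives them, read 7.00, 6.93 and 7.03 in cytoplasm and 8.01, 8.31 and 8.12 in nuclei (difference 1.16), and Cebpd differed by 1.34. Hosts of small nucleolar RNAs had 3 of 13 called in each direction (median 0.69). That is 23.1% each, against 18.7% of all genes higher in nuclei and 28.4% higher in cytoplasm. Snhg12 (1.42) and Snhg3 (1.34) were higher in nuclei, and Snhg17 (-1.17) and Gas5 in cytoplasm. Snhg3 lost its call without any single array other than EDL cytoplasm 1. A single chaperone of the endoplasmic reticulum, higher in nuclei, was called with the nuclear arrays as 1 sample, and 0 heat shock, proteasome, FoxO or small nucleolar host genes were.

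Replication-dependent histones, whose messages end in a stem-loop in place of a poly(A) tail, had 2 of 39 higher in nuclei and 4 in cytoplasm (median 0.34), against 0 and 1 with the nuclear arrays as 1 sample. H2bc6 read 9.11, 9.19 and 9.41 in cytoplasm and 7.59, 7.63 and 7.57 in nuclei (difference -1.64), and H2ac6 differed by -1.80, while H2bc18 (1.49) and H2bc1 (1.12) were higher in nuclei. The zinc finger genes, the largest family of transcription factors, divided much as all coding genes did. Of 315 tested, 72 (22.9%) were higher in nuclei and 60 (19.05%) higher in cytoplasm, against 23.7% and 21% of coding genes. The median of 0.09 became -0.05 after scaling to the 75th percentile. There were 6 calls in each direction with the nuclear arrays as 1 sample. Zfp974 read 4.54, 3.82 and 3.76 in cytoplasm, well above background on 1 array, and 6.6, 6.84 and 6.38 in nuclei (difference 2.57). Zfp640 read 9.72, 9.64 and 8.84 against 5.38, 5.39 and 5.52 (difference -3.97, SE 0.43). Zfp266 (mean 3.59 in cytoplasm and 6.43 in nuclei) was at least 4.82-fold higher in nuclei, and Zfp831 (5.89 and 3.21) at least 3.68-fold higher in cytoplasm.

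Hand-picked fibers can carry other cells on their surface, so markers of those cells were read as lists. In bulk samples, fewer cells of a type and less RNA per cell cannot be told apart. Markers of endothelial cells had 10 of 14 members higher in nuclei (median 0.83), led by Robo4 (1.56) and Tie1 (1.43), receptors of the cells that line blood vessels. Fibroblast markers had 5 of 12 higher in nuclei (median 0.32), with Dcn at 1.29 and Col1a1 at 1.20, and collagen and matrix genes 16 of 27 (median 0.96), with Mmp2 at 2.11, Col18a1 at 1.79 and Col1a2 at 1.45. Col1a1 read 12.72, 12.56 and 12.92 in cytoplasm and 13.94, 13.94 and 13.90 in nuclei, well apart. Schwann cell markers had 5 of 11 higher in nuclei (median 0.60), among them the myelin protein gene Mbp at 2.37 and Prx, which was well above background on no cytoplasmic array (mean 3.35, against 6.98 in nuclei), at least 7.21-fold higher in nuclei. The other 2 Mbp probes differed by -1.24, which was called, and 0.97. Satellite cell markers had 4 of 10 higher in nuclei (median 0.68), with Chodl at 2.84 and Megf10 at 1.99, while Pax7, the defining gene of these stem cells, was well above background on 0 of the 6 arrays. None of these lists had a gene called higher in cytoplasm by its brightest probe. The mean level of a whole list moved the same way on every array: it was 8.66 to 8.77 in cytoplasm and 9.57 to 9.67 in nuclei for endothelial cells, 9.46 to 9.62 and 9.91 to 9.98 for fibroblasts, 6.57 to 6.91 and 7.71 to 8.19 for Schwann cells, and 6.07 to 6.56 and 7.03 to 7.13 for satellite cells. With the nuclear arrays as 1 sample, 3 Schwann cell markers, 1 collagen or matrix gene and 1 satellite cell marker were called higher in nuclei, and 0 endothelial and fibroblast markers.

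The fiber's own markers had 8 of 10 members higher in nuclei (median 0.80), and pericyte and smooth muscle markers 5 of 10 higher in nuclei and 2 higher in cytoplasm (median 0.53), or 3 and 1 with the mouse pool as a block. Pdgfrb (1.96) and the smooth muscle myosin Myh11 (1.73) were among the nuclear ones. Cnn1, the smooth muscle calponin, read 8.54, 8.66 and 8.83 in cytoplasm and 6.83, 6.88 and 6.92 in nuclei (difference -1.80, SE 0.17) and kept its call in every setting. Markers of macrophages and red cells had medians of the opposite sign. Of all genes 28.4% were higher in cytoplasm and 18.7% in nuclei, and of coding genes 21% and 23.7%. Macrophage markers had 4 of 12 higher in cytoplasm (33.3%) and 0 in nuclei. Their median was -0.48, and -0.04 without scaling, where the count was 2 to 2. Fcgr1 differed by -1.36 and Lyz2 by -1.06, while the highest member, at 1.06, was not called. Red cell markers had 4 of 7 higher in cytoplasm (median -0.79). Hba-a2, an alpha globin, read 12.64, 13.35 and 12.78 in cytoplasm and 11.94, 12.07 and 11.90 in nuclei (difference -0.95, not called without EDL cytoplasm 2), and Ahsp was not well above background in nuclei (mean 5.45 in cytoplasm and 2.70 in nuclei) and was at least 2.71-fold higher in cytoplasm. When the nuclear arrays were 1 sample, 1 fiber marker and 1 pericyte or smooth muscle marker were called higher in nuclei, 1 of the latter and 1 red cell marker higher in cytoplasm, and 0 macrophage markers were called. The mean level of the macrophage list was 7.76 to 7.87 in cytoplasm and 7.37 to 7.51 in nuclei, and that of the red cell list 9.26 to 9.87 and 8.48 to 9.48, which overlap. The part of such cells in the differences of other genes was not tested.

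The RNAs with the largest cytoplasmic excess were of a different kind: unnamed lincRNA regions, predicted genes and members of large repeated families. The region chr7:66926500-66952100_F, printed above, read 11.50, 11.77 and 11.53 in cytoplasm and 4.66, 5.15 and 4.58 in nuclei, a difference of -6.80 (SE 0.41). The region chr16:3111550-3130500_R read 12.14, 12.18 and 12.52 against 5.57, 5.86 and 5.57 (difference -6.61), and chr16:3337275-3355950_F read 13.02, 13.10 and 13.19 against 6.65, 6.59 and 6.35 (difference -6.58, SE 0.30). These levels were high on every cytoplasmic array and low, though well above background, in nuclei, the other probes of the 3 regions differed by -4.62 to -6.78, and all 3 kept their call in every setting tried. One more of the leading regions, on chromosome 18, differed by -6.69, and its other probes varied more, from -5.88 to -1.07. Among coding genes Gm9758, a predicted gene, read 11.32, 11.37 and 11.47 in cytoplasm and 4.81, 5.04 and 4.97 in nuclei (difference -6.45, SE 0.32, adjusted p = 1.07e-08), or 87.3-fold. Its probe shares 30 bases with 3 probes of other names, so which of these genes it reads cannot be told from the array.

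The Speer genes, a rodent family of spermatogenesis-associated proteins that lies in repeated copies on chromosome 5, were all higher in cytoplasm. All 6 tested members of the 8 with a probe were called, with a median of -4.00 that was -4.18 and -3.54 under the other scalings, and 5 were called with the nuclear arrays as 1 sample. Speer4a read 11.64, 11.64 and 11.89 in cytoplasm and 6.77, 6.67 and 6.43 in nuclei (difference -5.1, SE 0.25), Speer4b differed by -5.30 and Speer4d by -5.23. Both fractions were well above background on all 6 arrays for these 3 genes. The rest of the 10 coding genes with the largest cytoplasmic excess were predicted or little-studied, Gm10220 (-5.14), Gm16506 (-5.04), Gm5622 (-4.73), C130026I21Rik (-4.73), LOC677525 (-4.48) and Gm8094 (-4.40). Among lncRNAs the order was E330016L19Rik (-4.53), Gm7056 (-4.37), 4933406F09Rik (-3.60), Rprl1 (-3.50), Gm6566 (-3.27) and BC040756, which read 9.74, 10.02 and 9.87 in cytoplasm and 6.63, 6.67 and 6.62 in nuclei (difference -3.24).

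Receptors of the nose, large families best known from its sensory neurons, had the same direction. Of 1067 olfactory receptor genes with a probe, 501 could be tested, and 275 (54.9%) were higher in cytoplasm and 7 were higher in nuclei (median -1.0). Of 252 vomeronasal receptor genes, 97 could be tested, and 77 (79.4%) were higher in cytoplasm and 1 in nuclei (median -1.74). The medians were -1.37 and -2.05 after scaling to the 75th percentile and -0.74 and -1.41 without scaling, and 73 and 31 genes were called higher in cytoplasm, with 0 in nuclei, when the nuclear arrays were 1 sample. These counts hold only genes bright enough to be tested. Over the probes of each family, 32.9% to 43.1% of olfactory receptor spots were well above background on the cytoplasmic arrays and 21.7% to 24.6% on the nuclear arrays, and for vomeronasal receptors the shares were 41.3% to 51.0% and 16.7% to 20.1%. Olfr476 read 8.20, 8.97 and 8.40 in cytoplasm and 3.82, 4.19 and 3.66, on no array well above background, in nuclei, at least 22.2-fold higher in cytoplasm. By the same bound Vmn1r183 (mean 7.67 in cytoplasm and 2.98 in nuclei) was at least 12.6-fold higher. In the other direction Vmn1r237 read 4.86, 5.26 and 5.74 in cytoplasm and 6.68, 6.52 and 6.54 in nuclei (difference 1.29).

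Some of the probes with the largest cytoplasmic excess lie close together, though every autosome and the X chromosome held probes at least 8-fold higher in cytoplasm. Of 15 leading cytoplasmic genes, the 10 coding genes above and the 5 with the largest bounds below, 7 lie on chromosome 14 and 6 on chromosome 5. In the window of 1 Mb that starts at 14 Mb on chromosome 5, 13 of 17 tested probes were at least 8-fold higher in cytoplasm, and in the next window 15 of 25. On chromosome 14 the windows that start at 42, 43 and 44 Mb held 9 of 11, 8 of 24 and 13 of 32 such probes, and on chromosome 7 the window that starts at 67 Mb held 10 of 16. Over whole chromosomes the share of tested probes at least 8-fold higher in cytoplasm was 4.04% on chromosome 14 (75 of 1855) and 2.27% on chromosome 7. It was 2.13% on chromosome 12, 2.12% on X, 2.04% on chromosome 5 and 0.263% on chromosome 11. Probes that share a run of at least 30 bases with a probe of another name were 3.9% of those tested. They were 16.5% of the 533 at least 8-fold higher in cytoplasm (88) and 5.85% of the 171 at least 8-fold higher in nuclei (10). Probes with shared bases can read the same RNA, so such a cluster is not a set of independent measurements.

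A further set of probes was well above background in 1 fraction only. On all 3 nuclear arrays and 0 of 3 cytoplasmic arrays there were 1717 (3.08% of all probes), and in the opposite case 1787 (3.21%). Their fold changes are lower bounds, set against the faintest signal counted as well above background. The largest nuclear bounds belonged to H60b, a ligand of a receptor of natural killer cells, which was at least 22.9-fold higher in nuclei (mean 3.30 in cytoplasm over 2 arrays and 8.65 in nuclei), to 1700109K24Rik and Svil, each at least 17.4-fold, and to 4831440D22Rik, at least 16.7-fold. The last leans on 1 array, since it read 14.10 on EDL nuclei 1 and 5.52 and 4.94 on the others, and its fitted difference of 5.17 became 2.21 without that array, which is also the one that stood apart at Socs3. Svil, which encodes supervillin, could not be tested at this probe, with a value of 3.08 on 1 cytoplasmic array and of 8.12, 8.37 and 8.26 in nuclei, and its 2 tested probes differed by 1.20 and 1.59. The largest cytoplasmic bounds were those of Gm8229 (at least 46.4-fold), AY358078 (45.9-fold), Gm8005 (45.3-fold), Gm8247 (33.0-fold) and 4933402N22Rik (32.7-fold). AY358078 read 9.42, 9.64 and 9.63 in cytoplasm and 3.85, 3.99 and 4.19 in nuclei, and Gm8229 read 9.51, 9.54 and 9.60 in cytoplasm and had no value in nuclei.

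The kind of RNA moved with the direction. Coding probes had a median difference of 0.22, and 25.8% were higher in nuclei and 18.7% in cytoplasm. Probes of named lncRNAs had a median of -0.48, with 9.96% higher in nuclei and 36.3% in cytoplasm, and lincRNA regions a median of -0.38, with 14.7% and 35%. After scaling to the 75th percentile the 3 medians were 0.04, -0.79 and -0.66, and without scaling 0.68, -0.15 and -0.02, so that the order of coding above non-coding stood under each. Where a lincRNA region was probed on both strands, 609 of 1006 regions were lower in nuclei on both, 209 were higher on both and 188 were higher on 1 strand only. Probes of 1 gene did not always go together: of 4737 coding genes with several tested probes, 271 (5.72%) had a probe called in each direction. Gas5, a host of small nucleolar RNAs whose spliced message is degraded fast, differed by -1.15 at its brightest probe and by 0.83 and 2.25 at the others, and the heat shock gene Hspa4 by -0.89, 0.83 and 1.30. Between the outermost probes of a coding gene, the one nearer the end was slightly the more nuclear. The difference nearer the start minus that nearer the end had a median of -0.10 in genes whose probes lay under 1 kb apart, -0.13 at 1 to 10 kb, -0.20 at 10 to 50 kb and -0.23 at 50 to 100 kb. It was 0.03 in the 175 genes with probes at least 100 kb apart, where the direction was lost.

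Base composition and gene size moved with the difference among probes of coding genes. Probes that had under 30% G and C had a median difference of 1.08, and 59.4% were higher in nuclei against 3.21% higher in cytoplasm (187 probes). At 35% to 40% the median was 0.57 and at 55% to 60% it was -0.15, where 12.7% were higher in nuclei and 26.8% in cytoplasm, but in the 120 probes of at least 60% it was 0.06. Between under 30% and 55% to 60%, the median fell from 0.81 to -0.27 after scaling to the 75th percentile and from 1.45 to 0.37 without scaling. Probes of genes that span less than 5 kb had a median of -0.21, with 12.2% higher in nuclei and 29.9% in cytoplasm, and those of 100 to 200 kb had 0.58, with 39.2% and 12.3%. Beyond 200 kb the median was lower again, at 0.42, with 34.9% and 15.1%. Among probes with a mean level of 8 to 12 the medians ran from 0.56 below 35% G and C to -0.09 at 55% and above, and from 0.09 for the shortest to 0.50 for the longest spans. The part of probe composition in the lists of large or intron-bearing genes above was not tested.

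**Figure D5:**
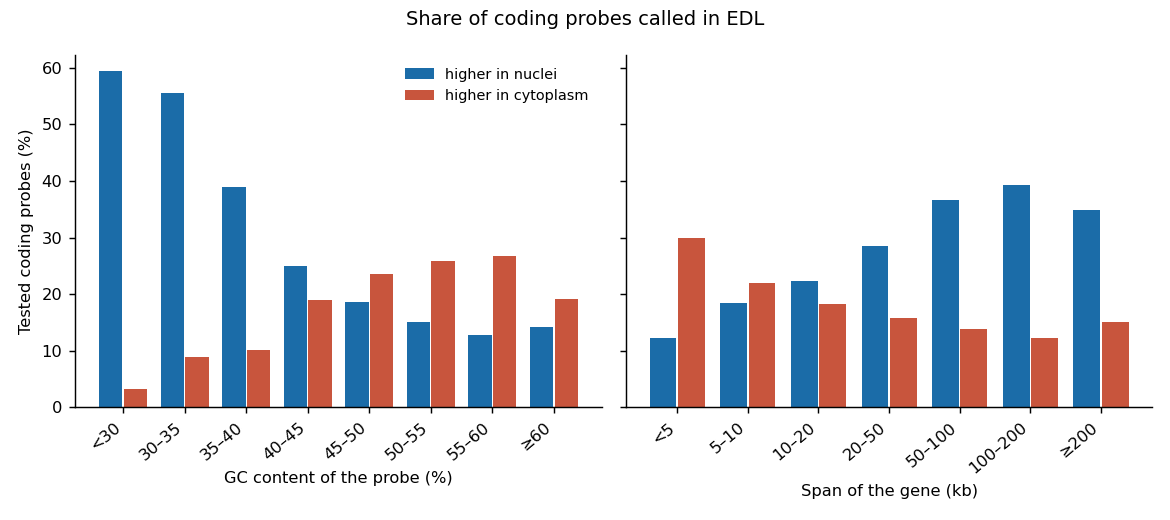
Share of tested coding probes called higher in nuclei or in cytoplasm (%, vertical axis) by the share of G and C in the probe (left) and by the span of the gene in kb (right). The share higher in nuclei was 59.4% below 30% G and C, 12.7% at 55% to 60% and 14.2% above, and 12.2% for spans under 5 kb, 39.2% for 100 to 200 kb and 34.9% beyond.

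The difference between fractions was rarely called different from that of soleus, whose arrays lay on the same 2 slides. In the test of EDL difference minus soleus difference, 12 of 41888 probes (0.0286%) were called, 4 (0.00955%) more nuclear in EDL and 8 (0.0191%) less so. At an unadjusted p of 0.05 in this test 2923 probes passed. A probe without a call is not shown to behave alike in both muscles. Gm12680, a predicted gene, read 5.80, 6.78 and 6.78 in EDL cytoplasm and 8.95, 9.03 and 8.92 in EDL nuclei, a difference of 2.51, while in soleus it was -2.19. The difference of TA, whose arrays lay mostly on other slides, was set against EDL in the same way: 141 of 41538 probes (0.339%) were called, 97 (0.234%) more nuclear in EDL and 44 (0.106%) less so. Cilp2, a protein of cartilage matrix, read 7.07, 6.87 and 6.98 in EDL cytoplasm and 10.28, 10.12 and 10.19 in EDL nuclei, a difference of 3.22 against -0.38 in TA. Dnm3os differed by 3.71 in EDL and 1.88 in TA, a gap that passed the test (adjusted p = 0.0444) but not with the mouse pool as a block (adjusted p = 0.17). Xist differed by 4.70 in EDL, 6.71 in soleus and 1.72 in TA, Neat1 by 2.57, 2.83 and 2.96, Pvt1 by -1.52, -1.21 and -1.28 and Speer4a by -5.1, -5.17 and -4.09, and none of these gaps between muscles was called. With the mouse pool as a block for EDL and soleus, and the TA arrays unpaired in a single block, 1 call was left against soleus and 5 against TA. With the nuclear arrays as 1 sample 0 were left in either comparison. Leaving out 1 EDL array moved the counts too. Against soleus 1 call was left without EDL cytoplasm 2 or any 1 nuclear array, 5 were left without EDL cytoplasm 3 and 15 were made without EDL cytoplasm 1. Against TA there were 53 without EDL cytoplasm 1, 46 without EDL cytoplasm 2, 136 without EDL cytoplasm 3 and 14 to 16 without 1 nuclear array. The slide of TA and its muscle cannot be told apart in this comparison.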

How the data were processed

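RNA of both fractions was measured on single-channel Agilent arrays with Cy3 label. Per the file headers, the deposited intensity was background-corrected by Feature Extraction 10.7.3.1 and not scaled between arrays. A second deposited table, already quantile-normalised by the authors, covers 3668 probe names and served as an alternative.

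Processed intensity was taken to log2 without any offset. Control spots, spots not positive and significant, and outlier-flagged spots were dropped. The 18 arrays were quantile-normalised together and spots were averaged by probe name. Group means were fitted across all genes with limma 3.58.1 (R 4.3.3, eBayes, 2-sided, Benjamini-Hochberg, threshold 0.05, all adjusted p-values). A probe was tested with values on at least 2 of 3 arrays in each EDL group, and 12012 probes were not. Residual degrees of freedom were 12 and prior degrees of freedom 3.27. In lists a gene is given by its brightest probe, and leading genes by the probe with the largest difference.

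Genes were named by rule: all tested members of the lncRNA list; up to 2 members per direction of every other list with the largest called, non-overlapping difference; the leading 10 coding, 6 lncRNA and 4 lincRNA region probes per direction; the 5 largest bounds; and the 4 smallest p-values per comparison of muscles. Other members were named as examples after their values were seen. Some genes are not reported here. Members and lists were chosen with earlier results of these data known. Reference tables of GRCm38.p6 gave names (31252 of 55681 probes) and gene spans only.

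Replicate numbers pair the fractions of EDL and of soleus, since both came from the same mice by the labels. Where the mouse pool is a block, these pairs are the blocks. The TA arrays, not paired by mouse, form a single block. Deviations of same-numbered EDL arrays from their group means correlated with r of 0.02, -0.01 and 0.03. The number of arrays limits precision.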

Additional observations from a re-analysis of the deposited data

Results flagged for a closer look

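The following probes had a difference between nuclei and cytoplasm in EDL that differed from that in another muscle, by the interaction test of limma across all probes (adjusted p). Against soleus, Gm12680 was more nuclear in EDL by 4.70 (SE 0.50, adjusted p = 0.0043), with a difference of 2.51 in EDL and -2.19 in soleus. The lincRNA regions that follow were less nuclear in EDL. The region chr4:129497990-129515290_F lay lower by -2.56 (EDL -0.24, soleus 2.31), chr8:71891610-71924216_F by -2.13 (EDL -1.10, soleus 1.03) and chr1:78591605-78606083_R by -1.85 (EDL -1.58, soleus 0.27), each with an adjusted p of 0.0362.

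Against TA, the region chr13:22110479-22116629_F was less nuclear in EDL by -3.33 (adjusted p = 0.000127, EDL -1.08, TA 2.25). Vipr2, a receptor of vasoactive intestinal peptide, was more nuclear in EDL by 2.58 (adjusted p = 0.00013, EDL 2.22, TA -0.36), Cilp2 by 3.60 (adjusted p = 0.00437, EDL 3.22, TA -0.38) and Adgrb2 by 2.10 (adjusted p = 0.00676, EDL 0.51, TA -1.58). H60b was more nuclear in EDL by 2.72 (adjusted p = 0.0216, EDL 5.35, TA 2.63), Gm12680 by 3.20 (adjusted p = 0.0216, EDL 2.51, TA -0.69), Zfp974 by 1.93 (adjusted p = 0.0387, EDL 2.57, TA 0.64) and Dnm3os by 1.84 (adjusted p = 0.0444, EDL 3.71, TA 1.88). EDL and soleus arrays share slides, whereas TA arrays lay mostly on others.

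Most of these calls rest on how the arrays are counted. With the mouse pool as a block, Gm12680 against soleus (adjusted p = 0.0256) and the region on chromosome 13, Vipr2 and Cilp2 against TA (adjusted p = 0.00544 each) were the only ones of the 12 still called, and with the nuclear arrays as 1 sample 0 of the 12 were. Some rest on signal that was not well above background, so that the sizes of the differences are not exact. Vipr2 and H60b were well above background on no EDL cytoplasmic array, where they were at least 2.87-fold and 22.9-fold higher in EDL nuclei, and Vipr2 on no TA array either. The region on chromosome 13 was on no EDL nuclear array, Gm12680 on no soleus nuclear array, and chr4:129497990-129515290_F on no soleus cytoplasmic array.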

How the results depend on the processing

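Of 168 tested named probes, 154 were called, and 83 kept their direction and call under every alternative. The nuclear arrays as 1 sample cost 79 calls, no scaling 16, scaling to the 75th percentile 12 and the replicate block 7. Without scaling Tagln (0.26), Etv5 (0.14) and Psmb1 (0.0036) turned positive and lost their calls too, which the 16 do not include. The medians of 32 of 36 gene lists moved by more than the spread between arrays without scaling, and those of 12 did after scaling to the 75th percentile.

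The 20328 calls within EDL fell to 3419 with the nuclear arrays as 1 sample (11924 unadjusted) and to 1284 of 3668 in the deposited matrix. Leaving out 1 array gave 16515 to 18863, the replicate block 18672 and Significance Analysis of Microarrays 18495. The 6 EDL arrays alone, without the spread of the other muscles, gave 23371. The 12 calls against soleus became 301 without scaling, 50 with normexp, 85 without the filter on positive signal, 5 in the deposited matrix, 1 with array weights, 1 with the replicate block, and 1 to 15 without 1 array. They became 0 with signal well above background required (2152 unadjusted) and 0 with the nuclear arrays as 1 sample (427 unadjusted). The 141 calls against TA became 466 without scaling, 467 with normexp, 404 without that filter, 29 in the deposited matrix, 5 with the replicate block, 14 to 136 without 1 array and 0 with the nuclear arrays as 1 sample (708 unadjusted). The cause of these shifts was not tested. The 6 EDL arrays alone give no value for either comparison of muscles.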
